A study of Schizosaccharomyces pombe with 2 samples.

Results

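The kinetochore and spindle checkpoint genes of the fission yeast Schizosaccharomyces pombe were compared between a strain labelled as subtelomere-deleted and a wild-type strain. The genes were chosen by function, as a list of 45 names covering centromere chromatin, the inner and outer kinetochore, the DASH complex, the spindle checkpoint and the Aurora kinase complex. Of these, 43 had a named S. pombe probe set with a signal above 0 in both arrays, out of 2896 named S. pombe genes in all. The other 2, dad4 and spc19, both DASH subunits, had no probe set named for them here and are not analysed. The array also carries Saccharomyces cerevisiae probe sets, and 21 of them bear a listed symbol. All 21 were at 0 in both arrays and were left out.

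The strains were ST3479, called SD5, from which subtelomeres had been removed, and JP1225, the wild-type. Both were of mating type h- and were harvested while growing exponentially in YES, a rich medium, at 32 °C. Each strain was represented by 1 array of polyadenylated RNA, so no test was possible and every ratio describes these 2 arrays only. The comparison addresses whether the transcripts of chromosome segregation genes had a different level in the strain without subtelomeres.

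A kinetochore is the protein assembly that ties a centromere to spindle microtubules. It is built on nucleosomes that hold the histone H3 variant CENP-A, to which the inner kinetochore binds, and the outer kinetochore and, in fungi, the DASH complex make the contact with microtubules. The spindle checkpoint delays anaphase while kinetochores are unattached, and Aurora kinase releases wrong attachments so that they can be made again. In fission yeast, kinetochores stay clustered next to the spindle pole body through interphase, and several of the genes below were first found in screens for chromosome missegregation.

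The 5 subtelomeric genes used to check the deletion, nhe1, dak2, gal1, gal7 and gal10, were all below background in SD5, at signals from 1.49 to 19.3, against 212 to 2611 in the wild-type. The background, taken from probe sets without an S. pombe target, was 26.6 in SD5 and 17.7 in the wild-type. The median signal over S. pombe probe sets was 998 in SD5 and 1168 in the wild-type. The median of the log2 ratios themselves, over S. pombe probe sets above background in both arrays, was -0.20, and this shift was removed by centring. All 5 of the h- marker genes that were named on the array, and also all 4 markers of the opposite mating type, h+, gave signals above background in both strains. Passing background therefore did not tell the mating types apart. The 4 meiosis markers passed it too, with mei4 at 42.6 in SD5 and 45.4 in the wild-type, and spo6 at 63.4 and 41.1. Log2 ratios below are SD5 over wild-type after this centring, and a fold is a ratio on the same scale. Signals are the deposited values before centring.

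Kinetochore and checkpoint genes had close levels in the 2 strains, and nsk1 alone lay beyond 1.5-fold. Over the 43 genes the median log2 ratio was -0.01, beside 0.00 over the 2865 named genes with a ratio. The ratio was above 0 in 21 and below 0 in 22, and 50.4% of all named genes were above 0. The middle 80% of the members, from the 10th to the 90th percentile, spanned -0.11 to 0.15, and that of all named genes -0.15 to 0.14. No member was 2-fold lower, where 0.244% of all named genes were, and none was 2-fold higher, where 0.0349% were. None was 1.5-fold lower (0.524% of all named genes), and 1 was 1.5-fold higher (0.279%). At 1.2-fold, 2 members were lower (3.18% of all named genes) and 1 was higher (2.55%). The genes duo1 and dad5 were below background in SD5, so their ratios were bounds, and these counts took each at its bound. In all, with dad5 at its bound, 40 of the 43 lay within 1.2-fold (93.0%), beside 94.3% of all named genes. These shares were near those of all named genes, and the count at 1.5-fold rests on nsk1 alone.

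**Figure D1:**
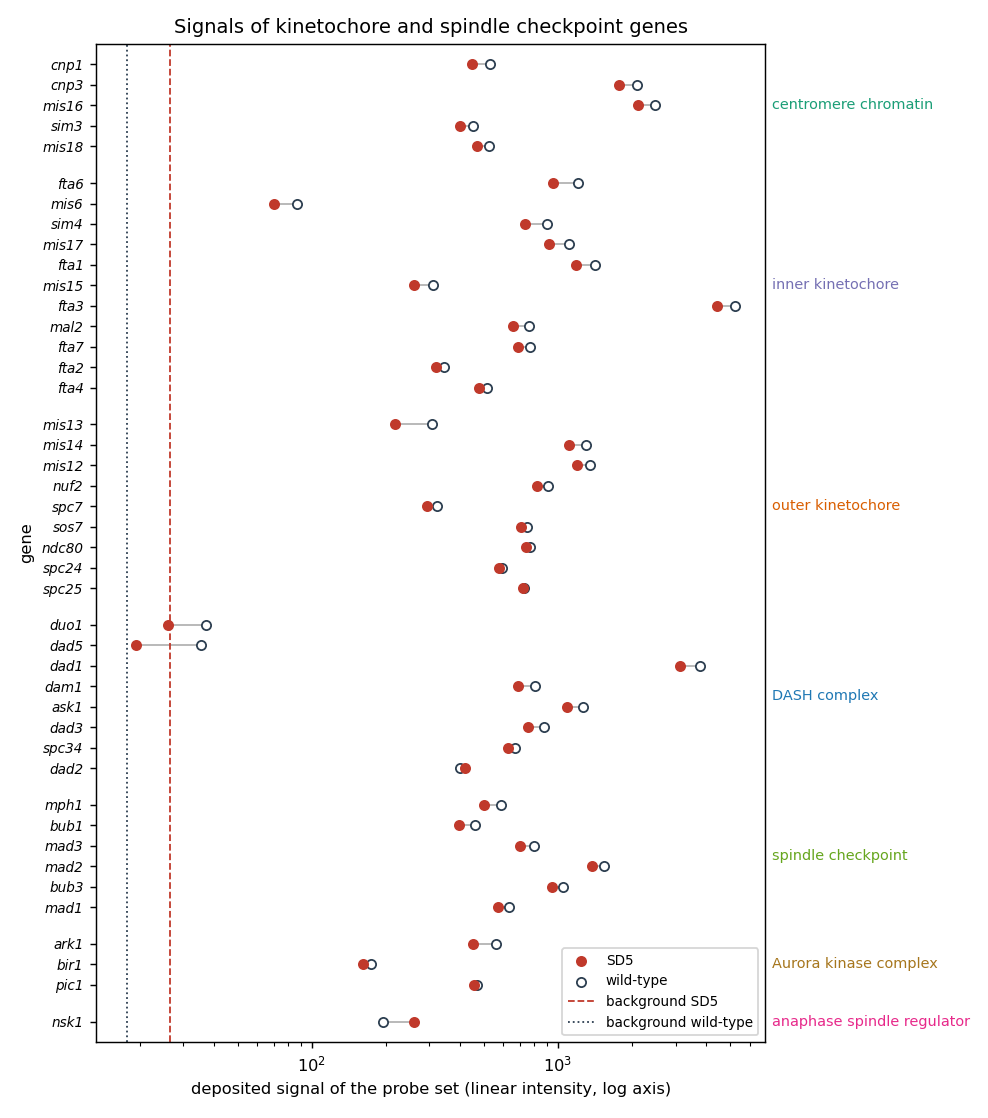
Signal of each gene's probe set in SD5 (filled) and the wild-type (open) on a log axis, grouped by role, with 1 array per strain and vertical lines at each array's background. Before centring most genes sit slightly lower in SD5, nsk1 and dad2 sit higher, and dad5 and duo1 lie at or under the SD5 background.

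With no replicates, the spread of other probe sets of like signal served as a scale. S. pombe probe sets were put into 20 classes of mean log2 signal, and the robust SD of the log2 ratio was taken in each. It was 0.32 in the dimmest class, which held mis6, duo1 and dad5, and 0.053 in the class of fta3. It is a spread between probe sets of 1 pair of arrays and not a replicate error. Of the members, 30 of 43 lay within 1 robust SD of the median of their class (69.8%), where 67% of all named genes did. The 30 include duo1 and dad5, each counted at its bound. Each member had 1 probe set, so no agreement between probe sets of a gene could be examined.

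Centromere chromatin genes differed by at most 1.03-fold between the 2 strains. The gene cnp1 (SPOM_SPBC1105.17), which encodes the CENP-A histone itself, had a signal of 446 in SD5 and 530.5 in the wild-type, a log2 ratio of -0.05. The gene cnp3 of the CENP-C homologue, which binds CENP-A nucleosomes, had 1772 in SD5 and 2095 in the wild-type (-0.04). The histone chaperone gene sim3, whose product carries Cnp1, had 402 in SD5 and 453 in the wild-type (0.03). Of the pair that primes centromeres for new CENP-A, mis16 had 2103 in SD5 and 2484 in the wild-type (-0.04). Its partner mis18 had 470 in SD5 and 526 in the wild-type (0.04). All 5 genes of the group lay within 1 robust SD of probe sets of like signal, and the group's median log2 ratio was -0.04.

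The inner kinetochore genes, which encode the Mis6-Sim4 complex on the centromere, had a median log2 ratio of -0.04 over 11 genes. After centring 8 of the 11 were below 0, from -0.13 to 0.10, and 8 of 11 lay within 1 robust SD of like signals. The split depended on scaling: 6 were above 0 and 5 below after quantile normalization, and all 11 were below 0 without centring. The lowest was fta6, a subunit found with Sim4, at 955 in SD5 and 1202 in the wild-type (-0.13). The CENP-I homologue gene mis6 had a dim probe set, at 70.2 in SD5 and 87.2 in the wild-type (-0.11), well inside the spread of dim probe sets. The CENP-K homologue gene sim4 had 732 in SD5 and 902 in the wild-type (-0.10).

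The remaining inner kinetochore genes lay closer to 0 or above it. The genes mis17, with 922 in SD5 and 1106 in the wild-type (-0.06), and mis15, with 261 in SD5 and 310 in the wild-type (-0.04), encode partners of Mis6. The CENP-L homologue gene fta1 had 1185 in SD5 and 1415 in the wild-type (-0.05). The CENP-H homologue gene fta3 had 4411 in SD5 and 5214 in the wild-type (-0.04), at -1.21 robust SDs from the median of its narrow class. The CENP-O homologue gene mal2 was at 656 in SD5 and 760 in the wild-type (-0.01). On the positive side, the CENP-Q homologue gene fta7 had 690 in SD5 and 768 in the wild-type (0.05). The CENP-P homologue gene fta2 had 319 in SD5 and 345 in the wild-type (0.09). The last subunit, fta4, had 477 in SD5 and 513 in the wild-type (0.10). None of the 11 reached 1.2-fold in either direction.

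The outer kinetochore genes had a median log2 ratio of 0.07 over 9 genes, of which 7 were above 0 and 2 below, while all 9 were below 0 without centring. The group held one of the lowest and several of the highest ratios among the members. All 4 subunits of the Ndc80 complex, the microtubule-binding rod of the kinetochore, were above 0. The gene spc25 (SPOM_SPCC188.04C) had 721 in SD5 and 724 in the wild-type (0.20), 1.97 robust SDs above the median of like signals. The gene spc24, whose product pairs with Spc25 at the inner end of the rod, had 574 in SD5 and 592 in the wild-type (0.16). At the microtubule end, ndc80 had 742 in SD5 and 773 in the wild-type (0.15). Its partner nuf2 had 821 in SD5 and 907 in the wild-type (0.06). The signals of all 4 were therefore lower in SD5 as deposited, and their ratios were above 0 because they were less reduced than the median probe set. Without centring the 4 log2 ratios ran from -0.14 to -0.01, and they were above 0 under the other 7 alternatives.

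The other outer kinetochore genes encode the Mis12 complex and the Spc7 pair. The gene mis13 (SPOM_SPBC409.09C), the Dsn1 subunit of the Mis12 complex, had 217 in SD5 and 308 in the wild-type (-0.30), 1.23-fold lower. With bounds such as those of duo1 and dad5 counted as ratios, this was the lowest of the 43 and the 61st lowest of all named genes. It lay at -1.62 robust SDs from the median of like signals. The other measured genes of the complex lay nearer to 0. The gene mis12 had 1192 in SD5 and 1354 in the wild-type (0.02), and mis14, the Nsl1 subunit, had 1103 in SD5 and 1298 in the wild-type (-0.03). The KNL1 homologue gene spc7, whose product is the platform for checkpoint proteins, had 295 in SD5 and 323 in the wild-type (0.07). Its partner sos7 had 704 in SD5 and 745 in the wild-type (0.12). The 6 named genes nearest to mis13, within 4 protein-coding genes on either side in the reference order, had log2 ratios from -0.03 to 0.22.

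**Figure D2:**
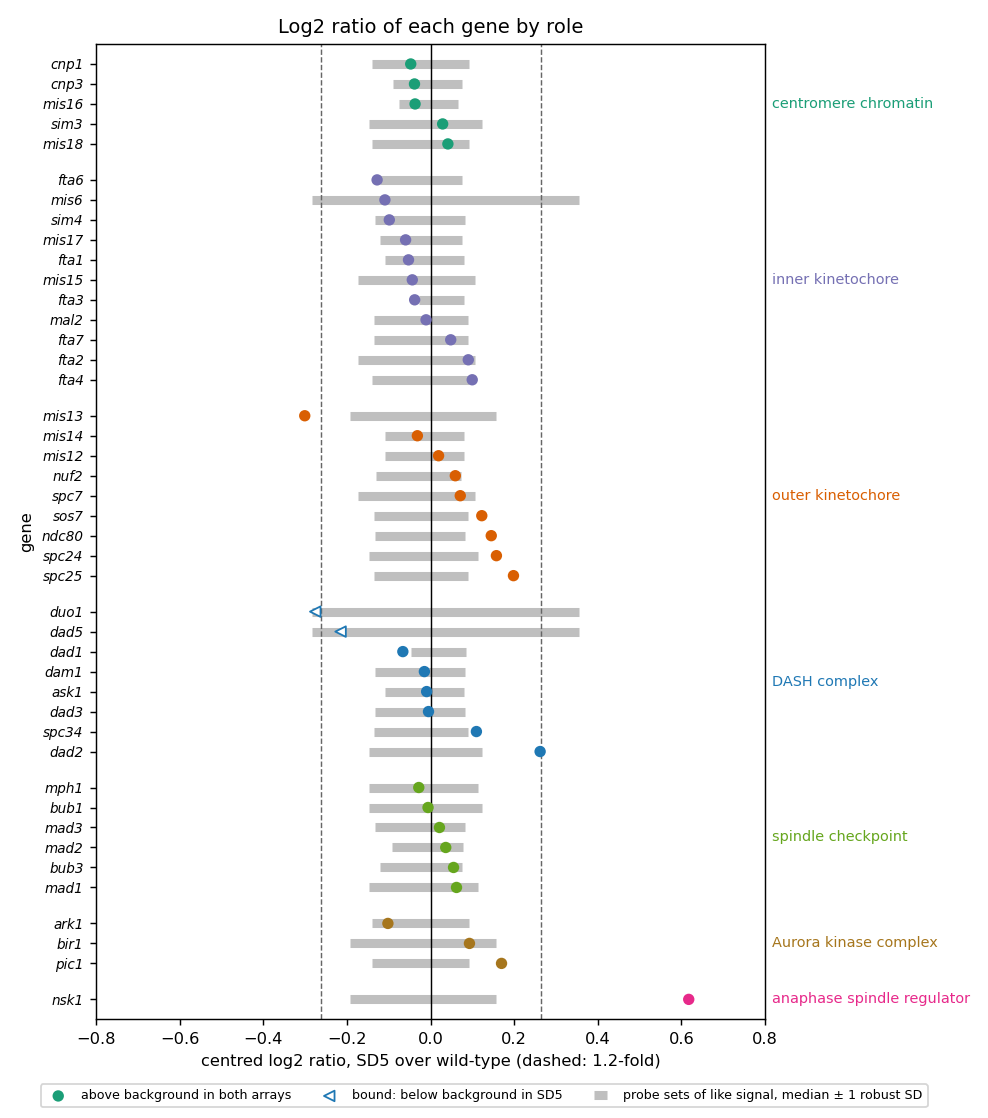
Centred log2 ratio of SD5 over wild-type for each gene by role, with grey bars for the median ± 1 robust SD of probe sets of like signal and dashed lines at 1.2-fold. The gene nsk1 stands at 0.62, mis13 at -0.30 and dad2 at 0.26, and the open triangles of duo1 and dad5 are bounds.

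The DASH complex forms on microtubules and couples kinetochores to their ends, and 8 of its 10 listed genes were measured. Their median log2 ratio was -0.01, with 2 above 0 and 6 below; the signs were 5 above and 3 below after loess normalization, and 4 above and 2 below after quantile normalization, which gave duo1 and dad5 no ratio. Without centring 1 was above 0 and 7 were below. The highest was dad2 (SPOM_SPAC1805.07C), at 417 in SD5 and 401 in the wild-type (0.26), 2.02 robust SDs above the median of like signals. It lay just under the limit of 1.2-fold, with a log2 ratio of 0.2619 where the limit is 0.2630. The gene spc34 had 627 in SD5 and 670 in the wild-type (0.11). The other subunits above background were near 0. The gene dad3 had 756 in SD5 and 873 in the wild-type (-0.01), and ask1 had 1092 in SD5 and 1265 in the wild-type (-0.01). The gene dam1, whose product is a target of Aurora kinase in budding yeast, had 690 in SD5 and 803 in the wild-type (-0.01), and dad1 had 3130 in SD5 and 3774 in the wild-type (-0.07).

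The probe sets of 2 DASH genes were too dim for a ratio at the reported background. The gene duo1 had 26.2 in SD5, under the background of 26.6, and 37.1 in the wild-type. With its SD5 signal raised to the background, duo1 was at least 1.21-fold lower in SD5 (log2 bound -0.28). By that rule it was counted as the second member past 1.2-fold on the low side. With the background at the 75th percentile, which its signals passed in both arrays, its log2 ratio was -0.30. With the background added to every signal as a pseudocount its log2 ratio was 0.13, so its direction was not settled. The gene dad5 had 19.3 in SD5 and 35.6 in the wild-type. By the same rule it was at least 1.16-fold lower (log2 bound -0.22), while with the pseudocount its log2 ratio was -0.03. Leaving out these bounds, the median over the 41 members above background in both arrays was 0.02.

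Spindle checkpoint genes had a narrow range, from -0.03 to 0.06, around a median of 0.03. The range of the centromere chromatin genes was also narrow, from -0.05 to 0.04. All 6 checkpoint genes were within 1 robust SD of like signals. The kinase gene mph1, the homologue of Mps1 that starts checkpoint signalling at the kinetochore, had 500 in SD5 and 587 in the wild-type (-0.03). The kinase gene bub1 had 396 in SD5 and 458 in the wild-type (-0.01), and bub3, whose product brings Bub1 to Spc7, had 941 in SD5 and 1043 in the wild-type (0.05). The products of mad2 and mad3 inhibit the anaphase-promoting complex together with Slp1. The signal of mad2 was 1375 in SD5 and 1544 in the wild-type (0.04), and that of mad3 was 701 in SD5 and 796 in the wild-type (0.02). The gene mad1, which encodes the kinetochore receptor of Mad2, had 572 in SD5 and 631 in the wild-type (0.06). The median turned to -0.02 with centring on hybridisation controls and -0.17 without centring.

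The Aurora kinase complex genes differed in sign but not beyond 1.2-fold. The kinase gene ark1 (SPOM_SPCC320.13C) had 452 in SD5 and 558 in the wild-type (-0.10). The INCENP homologue gene pic1, whose product activates and places the kinase, had 456 in SD5 and 467 in the wild-type (0.17), 1.67 robust SDs above the median of like signals. The survivin homologue gene bir1 had 162 in SD5 and 175 in the wild-type (0.09). Without centring all 3 ratios were below 0.

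The gene nsk1 (SPOM_SPAC3G9.01) encodes a protein that in anaphase acts at the spindle poles and helps kinetochores to stay attached to them. Its signal was 260 in SD5 and 195 in the wild-type, 1.53-fold higher in SD5 (log2 ratio 0.62). This was the highest of the 43 ratios and the 7th highest of the 2865 named genes, and it lay 3.65 robust SDs above the median of like signals. At least 3 robust SDs above that median was reached by this 1 member, and by 0.838% of all named genes. That limit was set after the values were seen. The next highest ratio among the members was that of dad2. The log2 ratio stayed above 0 under all 8 alternatives but fell short of 1.5-fold under 3 of them: it was 0.57 with centring on hybridisation controls, 0.41 without centring, and 0.42 as a bound when the 10th percentile of S. pombe signals served as background. In cultures such as these, a larger share of cells that express a gene and more RNA per cell cannot be told apart.

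The neighbours of nsk1 did not show a like ratio. Within 4 protein-coding genes on either side, 5 named genes were measured, with log2 ratios from -0.11 to 0.23 and a median of -0.02. The adjacent gene oar2 had 885 in SD5 and 1033 in the wild-type (-0.02). In the reference order nsk1 is the 984th protein-coding gene from the nearer end of chromosome I. The member closest to a chromosome end, ark1, is 49th from an end of chromosome III. By chromosome, the median log2 ratio was -0.01 for 15 members on I, -0.03 for 17 on II and 0.04 for 11 on III.

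**Figure D3:**
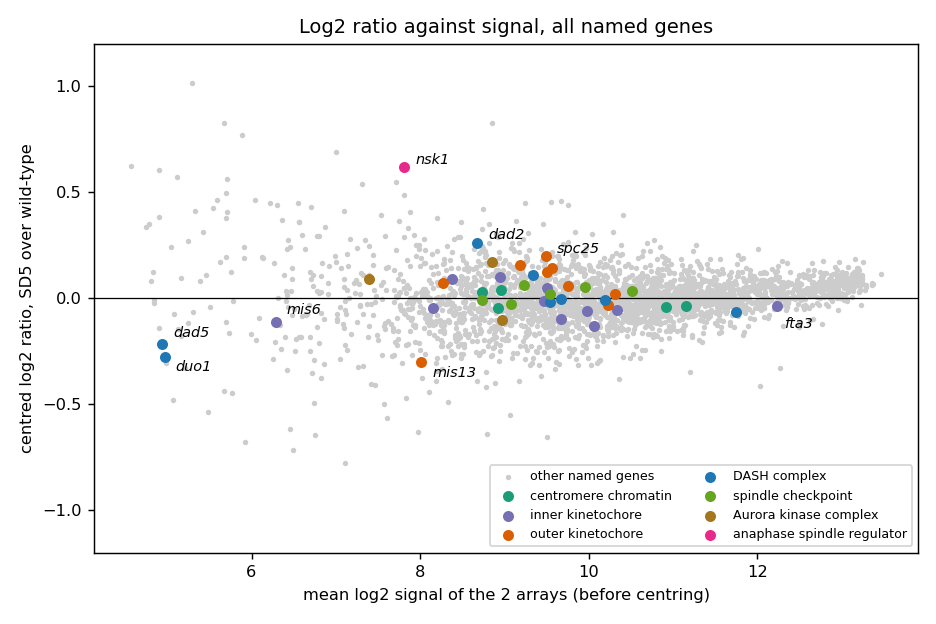
Centred log2 ratio of SD5 over wild-type against the mean log2 signal of both arrays, with named genes in grey and the members coloured by role. The members follow the funnel of all genes, wide at dim signals and narrow at bright ones, with nsk1 above it. The points of duo1 and dad5 are bounds, and 7 named genes lie beyond the axis.

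Further genes of the same pathway were read from 4 lists. Their ratios are given only after the shift of -0.20 was removed, which raised each of them. The alternatives are not given for these genes. Of 13 other kinetochore and centromere genes 8 were measured, with 6 above 0 and a median of 0.06. None of the 8 was past 1.2-fold, where 2.55% of all named genes were higher and 3.18% lower. The highest were mhf1, a histone-fold gene of the CENP-S type, at 1820 in SD5 and 1906 in the wild-type (0.14), and scm3, the gene of a CENP-A chaperone, at 562 in SD5 and 593 in the wild-type (0.13). The lowest were nbl1, a borealin-like member of the Aurora complex, at 61.4 in SD5 and 75.4 in the wild-type (-0.09), and the GATA-factor gene ams2, at 299 in SD5 and 357 in the wild-type (-0.05).

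The anaphase-promoting complex, its activators and separase, on which the checkpoint acts, had ratios in 16 of 18 genes, 10 of them above 0, with a median of 0.03. At least 1.2-fold higher were 2 of them, where 2.55% of all named genes were, and none was 1.2-fold lower (3.18% of all named genes). The securin gene cut2, whose product holds separase inactive until anaphase, had 475 in SD5 and 429 in the wild-type (0.35). The RING-finger subunit gene apc11 had 953 in SD5 and 884 in the wild-type (0.31). The log2 ratios of cut2 and apc11 lay 3.23 and 3.35 robust SDs above the median of like signals. At least 3 robust SDs above it was reached by 0.838% of all named genes. At the low end were apc2, with 136 in SD5 and 169 in the wild-type (-0.11), and cut4, with 216 in SD5 and 266 in the wild-type (-0.09). The direct target of the checkpoint, slp1, had 671 in SD5 and 756 in the wild-type (0.03).

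Spindle motors and microtubule-associated proteins had a median of 0.01 over 11 genes, 7 above 0. Of all named genes, 2.55% were at least 1.2-fold higher and 3.18% at least 1.2-fold lower. The kinesin-14 gene klp2 was the 1 gene of the list past 1.2-fold, at 346 in SD5 and 328 in the wild-type (0.28). It was followed by dis1, a TOG-family gene, at 119 in SD5 and 123 in the wild-type (0.15). The lowest were the other TOG-family gene alp14, at 336 in SD5 and 435 in the wild-type (-0.17), and the kinesin-8 gene klp5, at 595 in SD5 and 750 in the wild-type (-0.13). Mitotic phosphatases, polo kinase and mitotic transcription factors had a median of -0.08 over 7 of 8 genes, with 5 below 0 and none past 1.2-fold. Among them the polo kinase gene plo1 was lowest, at 551 in SD5 and 700 in the wild-type (-0.14), followed by the type 1 phosphatase gene dis2, at 2009 in SD5 and 2523 in the wild-type (-0.13). The other phosphatase gene of that type, sds21, was highest, at 910 in SD5 and 1005 in the wild-type (0.06), followed by mbx1, at 454 in SD5 and 504 in the wild-type (0.05).

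**Figure D4:**
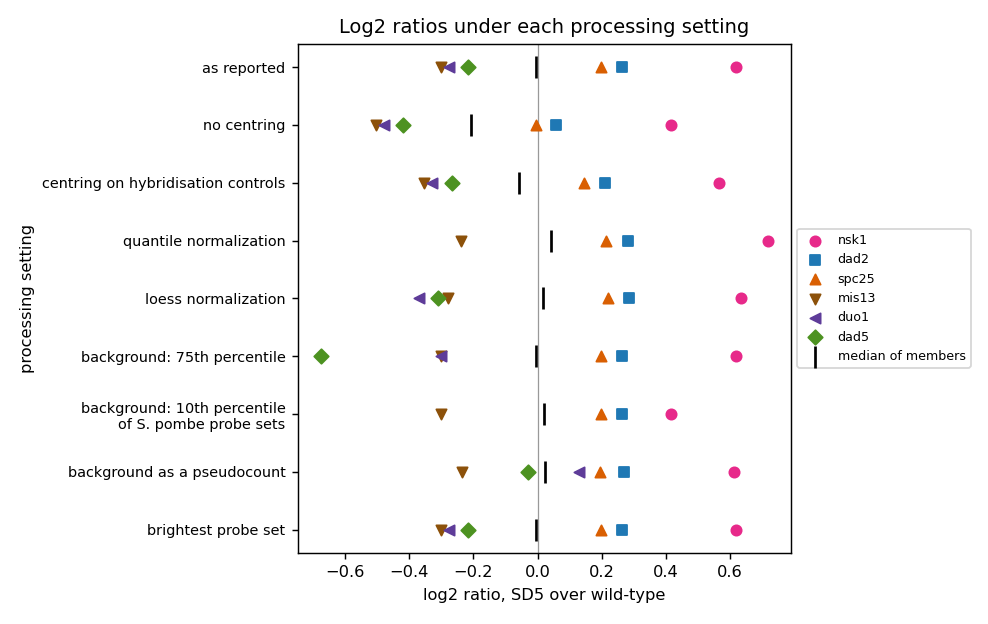
Log2 ratio of SD5 over wild-type for the outermost members and for the median of all members (bar) under each processing setting. The gene nsk1 stays at 0.41 or above throughout, mis13 stays below 0, duo1 crosses 0 with a pseudocount, and missing points of duo1 and dad5 had no ratio.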

How the data were processed

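The authors deposited a table of 10928 rows with a linear intensity for each array, of which 5748 were at 0 in both arrays and were left out as masked. How they summarised, scaled and masked the signals is not stated in what was used here; GCOS 1.4 is named, with no role, per the submitters' processing notes. Biotinylated cRNA was made from 5 ng of polyadenylated RNA with a kit that primes at the poly(A) tail, per the labels' protocols. Background was set at the 95th percentile of 79 control and reporter probe sets lacking an S. pombe target, lower signals were raised to it, and log2 ratios were centred on their median over S. pombe probe sets that passed it in both strains. A signal below background in 1 strain gave a bound, except where the centred bound had the opposite sign. Such probe sets, and those below background in both strains, were given no ratio. Probe sets were named through the platform's table, in which 5518 probes had 1 symbol, 20 had several and 5390 array rows had none; 2914 matched S. pombe genes of assembly ASM294v3, used for names and gene order only. Every member was named, and from each other list the 2 highest and 2 lowest genes; slp1 and the neighbour oar2 were named after their values were seen. The members, lists and limits were chosen with earlier results of these data known. With 1 array per strain nothing was tested. The ratio calculation was tested on simulated data, with changes set only in brighter probe sets above background in both arrays. Bounds and dimmer probe sets, such as that of nsk1, were not checked in this way. In addition, 8 alternatives were computed. The number of arrays limits the precision. Python 3.11.15, numpy 2.4.6, pandas 2.3.3 and statsmodels 0.14.6 were used.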

Additional observations from a re-analysis of the deposited data

How the results depend on the processing

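Of 8 alternatives, leaving out the centring lowered every member together, as it did the median of all named genes, to -0.20. The members' median was then -0.21. The role group medians were -0.24 for centromere chromatin, -0.25 for the inner and -0.13 for the outer kinetochore, and -0.22 for the DASH complex. They were -0.17 for the spindle checkpoint and -0.11 for the Aurora complex, with nsk1 at 0.41. Of 43 members 9 were 1.2-fold lower, where 26.9% of all named genes were, and 0 were 1.5-fold higher (0.105%). With centring on hybridisation controls the members' median was -0.057, that of centromere chromatin -0.090, and 0 members were 1.5-fold higher (0.175% of all named genes). After quantile normalization the Aurora complex median was 0.20, with 0 members 1.2-fold lower (2.03% of all named genes) and 2, nsk1 and dad2, 1.2-fold higher (4.37%). Loess normalization and the background as a pseudocount also gave 2 that were 1.2-fold higher (2.72% and 3.58% of all named genes), and the pseudocount left 0 that were 1.2-fold lower (2.12%) and turned duo1 to 0.13, because the added background was larger in SD5. With the background at the 75th percentile 1 member, dad5 (-0.68, now above background in both arrays), was 1.5-fold lower. The share of all named genes past that limit was 0.524% with the reported background and is not given for the 75th percentile. The 10th percentile of S. pombe signals as background left 39 members with a ratio, and nsk1 was at 0.42. Of these, 0 members were 1.5-fold higher (0.0375% of all named genes) and 1 was 1.2-fold lower (2.29%). The median difference between members and all named genes stayed between -0.01 and 0.04 under every alternative. No paired analysis was possible because each strain had 1 array, and no replicate could be left out.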
